A study of Mus musculus with 114 samples.

Results

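Endothelial marker genes are a set of 8 genes that mark the lining of blood vessels, followed here in RNA-seq of mouse adipocytes. They are Pecam1, Cdh5, Kdr, Flt1, Tek, Tie1, Egfl7 and Emcn, matched by gene symbol, and all 8 were among the 29132 genes listed. The set was drawn up with earlier results of these data known. Perigonadal fat of male C57BL/6J mice (C57BL/6 in the labels) was digested with collagenase, and the cells that floated were taken as adipocytes. From 6 weeks of age the mice were kept for 8, 20 or 34 weeks on a high fat diet (HFD) or on chow (CD). There were 6 mice in each group, except for 8 CD mice at 34 weeks, and 38 mice in all. The labels list 3 technical replicates for each mouse and the table holds 1 column per mouse, taken here as their combination, so the mouse is the replicate. The methods name a choice of control diets, and the labels do not say which CD mouse received which.

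Endothelial cells form the inner wall of every blood vessel and of the dense capillary bed around fat cells. They hold together through cadherin junctions, grow and branch under vascular endothelial growth factor (VEGF), and are kept stable by angiopoietins from the cells around them. In adipose tissue the vessels deliver fatty acids and oxygen and grow when a fat pad expands. Endothelial cells belong to the stromal vascular cells, which collagenase digestion is meant to part from the floating adipocytes. In RNA of a bulk fraction, fewer cells of a type and less RNA per cell cannot be told apart.

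The floating fraction was labelled adipocytes, and Adipoq, the adipocyte hormone adiponectin, ranged from 2068 to 6653 CPM (the reads of a gene per 1000000 gene reads) over the 38 mice. The summed level of the 8 endothelial genes ranged from 29.5 to 465 CPM, with a median of 134.6 CPM. Depth was between 9275711 and 15480388 gene reads in a mouse, so 1 read equals 0.0646 to 0.108 CPM, and the 8 week groups did not overlap in depth (10562845 to 12611013 in CD and 13201234 to 15480388 in HFD mice). CPM corrects for this difference in total, although not for its composition. A pair of mice at the high end, each the highest of its group for all 8 genes, is said below to stand apart. The term rests on this rank and not on a test. CD mouse 4 at 8 weeks was the highest of its group for 8 of the 8 genes, at 2.09 to 3.09 times the next mouse, and HFD mouse 2 at 34 weeks was the highest of its group for 8 of 8, at 1.19 to 1.97 times the next. At the low end, CD mouse 3 at 20 weeks was the lowest of its group for 8 of 8, the next mouse being 1.37 to 4.25 times as high. CD mouse 3 and HFD mouse 2 at 8 weeks were also lowest for 8 of 8, with the next mouse 1.305 to 2.61 and 1.36 to 2.53 times as high. Counts are given without these mice where that changes them.

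The sequences shown first are those that place the genes on the genome. Egfl7 carries the endothelial microRNA miR-126 within its gene on the same strand, and the mature microRNA lies at chr2:26591402-26591423 (+, GRCm38.p6, RefSeq), inside the Egfl7 gene as annotated. It is shown because polyA RNA-seq reports on the host gene only, and the microRNA itself was not measured. Capitals mark its seed (bases 2 to 8).
mmu-miR-126a-3p: uCGUACCGugaguaauaaugcg

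Promoter windows of RefSeq (GRCm38.p6), from 250 bases before to 50 bases after a gene start, were found for 6 of the 8 genes, in 8 windows since Egfl7 has several starts. Endothelial genes are commonly bound by ETS factors, whose core is GGAA, and 3 words with this core were searched on both strands. AGGAAG was found in 35.4% of all 32851 windows, CGGAAG in 16.9% and CAGGAAGT, which contains the first, in 3.33%. The 3 windows below were chosen because Flt1 and Kdr are the VEGF receptor pair whose balance is followed later and because the Egfl7 window holds the longest word. Each is the part before the start, 5′ to 3′ on the strand of the gene, and capitals mark an ETS word.
Flt1, chr5:147726012-147726261 (-): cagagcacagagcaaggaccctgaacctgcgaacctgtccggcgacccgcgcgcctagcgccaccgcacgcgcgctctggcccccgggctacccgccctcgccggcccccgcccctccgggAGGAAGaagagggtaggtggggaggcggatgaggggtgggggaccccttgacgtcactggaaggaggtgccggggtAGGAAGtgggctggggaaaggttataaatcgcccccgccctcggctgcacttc
Kdr, chr5:75978456-75978705 (-): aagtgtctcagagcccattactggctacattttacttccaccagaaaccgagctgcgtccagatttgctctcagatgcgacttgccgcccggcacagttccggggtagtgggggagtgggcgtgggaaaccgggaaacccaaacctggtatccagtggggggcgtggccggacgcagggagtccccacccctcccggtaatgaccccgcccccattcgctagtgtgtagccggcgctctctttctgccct
Egfl7, chr2:26583615-26583864 (+): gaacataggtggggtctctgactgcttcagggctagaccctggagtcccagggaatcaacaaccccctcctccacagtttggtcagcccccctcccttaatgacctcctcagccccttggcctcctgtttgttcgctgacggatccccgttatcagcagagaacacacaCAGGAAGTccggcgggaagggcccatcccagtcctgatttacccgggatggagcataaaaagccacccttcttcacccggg

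The Flt1 window held AGGAAG 2 times and the Kdr window held none of the 3 words. Egfl7 showed AGGAAG 2 times in this window, 1 of them within CAGGAAGT and the other among the 50 bases after the start. Its other windows held AGGAAG 3 and 0 times. The Tie1 window held AGGAAG 2 times and CGGAAG once, the Emcn window AGGAAG 2 times and the Tek window none. The word TATAAA, the core of the TATA box, occurred in the Flt1 window alone among the 8 and in 13.6% of all windows. The word AGATAA, bound by GATA factors, occurred in the Tek window alone and in 11.2% of all windows. The number of CG dinucleotides per window was 29 for Flt1, 19 for Kdr, 5, 8 and 31 for the windows of Egfl7 (8 in the one shown) and 2 to 7 for Emcn, Tek and Tie1, against a median of 7 over all windows. A match describes letters only.

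With HFD the 8 genes were higher than with CD at every time point, by a median of 1.18, 1.08 and 1.17 on the log2(CPM + 1) scale at 8, 20 and 34 weeks, where the median of all genes tested was 0.11, 0.14 and 0.07. Of the 8 genes, 8 passed the test at 8 weeks, 6 at 20 weeks and 7 at 34 weeks, all of them higher. Cdh5 and Pecam1, the junction genes, had the largest differences at 8 weeks, at 3.26-fold and 3.03-fold, and Emcn the smallest, at 1.83-fold. The test was limma on all 10343 genes with a mean log2(CPM + 1) above 2 in all 6 groups together, with Benjamini-Hochberg adjustment over all of them and a threshold of 0.05. In the same tests 29.8%, 38.3% and 27.5% of all genes passed as higher with HFD, so that many genes moved the same way. Emcn passed the filter on low values only through the HFD mice (mean log2(CPM + 1) of 1.64 in CD and 2.51 in HFD mice), so that its own pass is tied to the difference. Among the other 7 genes 7, 6 and 6 passed, with medians of 1.20, 1.08 and 1.22. With no filter 6, 5 and 7 of the 8 passed. Fold changes are on the log2(CPM + 1) scale, which understates the change of low genes such as Emcn.

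Each of the 24 differences kept its direction in the 51 other settings tried, but several calls were lost. Many of these settings could not change a direction, since a difference stays the same when a mouse of another time is left out. Dropping the filter or fitting each comparison's own groups leaves its size unchanged too. With the mean level of the macrophage markers as a covariate, 2, 0 and 0 of the 8 genes passed at 8, 20 and 34 weeks and the median difference was 0.81, 0.48 and 0.72. The count tests edgeR and DESeq2 called 4 and 5 of the 8 at 8 weeks, 4 and 5 at 20 weeks, and 8 and 8 at 34 weeks. Of all 10343 genes edgeR called 2287, 2757 and 2167 higher, and DESeq2 2456, 3018 and 2239. With array weights 8, 8 and 2 of the 8 passed at 8, 20 and 34 weeks. The macrophage markers themselves differed between the diets, as given below, so the covariate and the diet cannot be fully separated. How many of all genes passed with the covariate or with array weights is not given here. Those counts are therefore not a result about the 8 genes alone. Single mice also decided counts. Without CD mouse 3 or HFD mouse 6 of the 8 week groups 5 genes passed at 8 weeks, without CD mouse 3 of the 20 week group 2 passed at 20 weeks, and without HFD mouse 2 of the 34 week group 4 passed at 34 weeks. Without both mice that stood apart, an alternative chosen after the data were seen, 8, 7 and 7 genes passed, and without CD mouse 3 of the 20 week group as well 8, 5 and 7 passed.

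**Figure D1:**
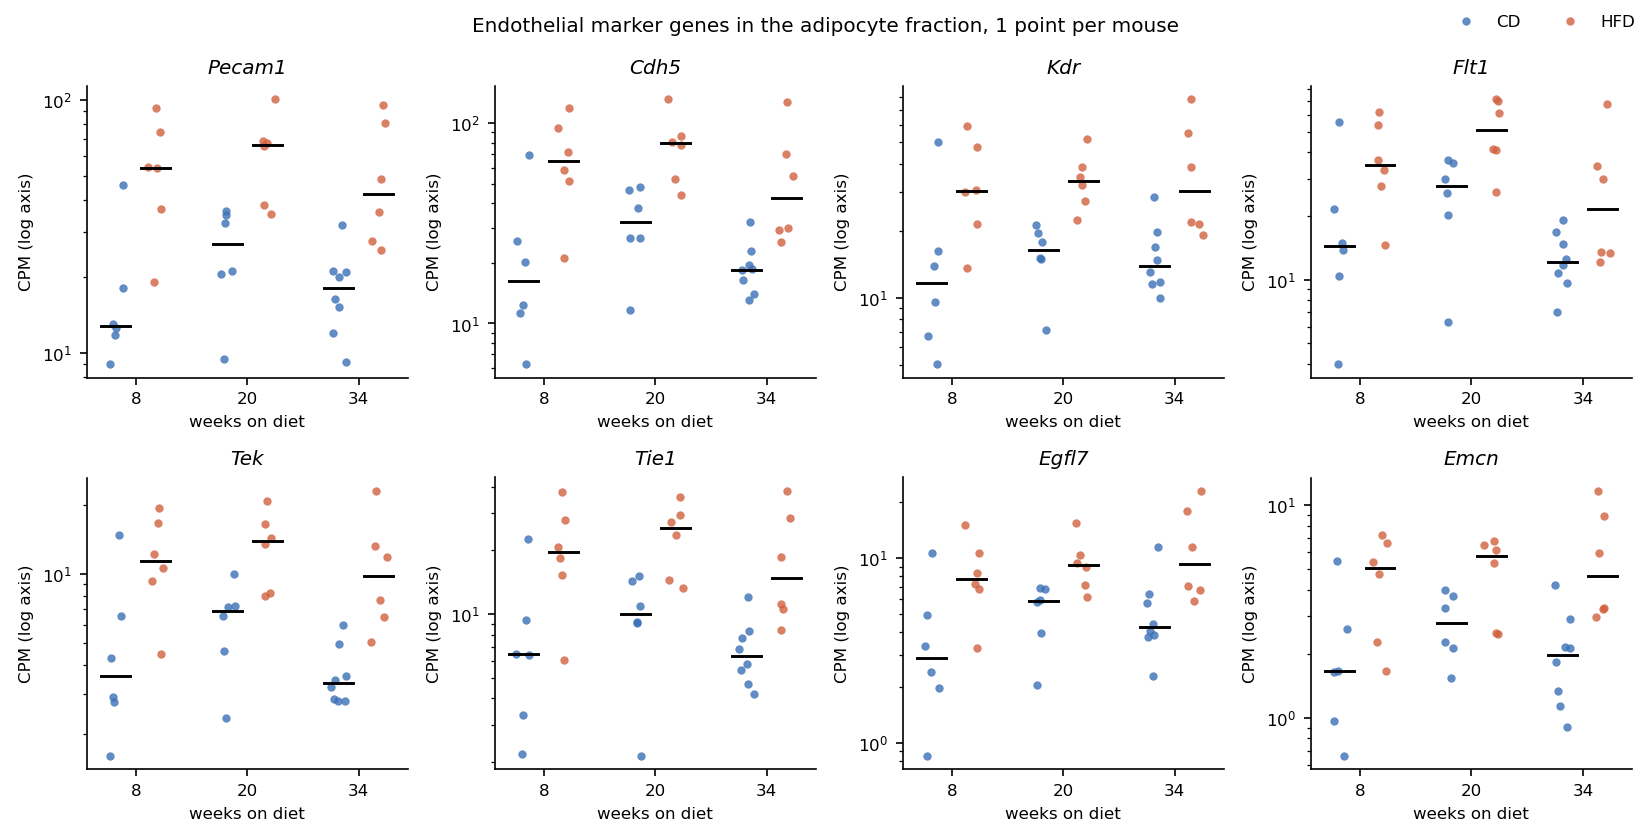
Each panel plots the CPM of 1 gene on a log axis against weeks on diet, with 1 point per mouse (blue CD, red HFD) and black bars for group medians. The medians of HFD mice lie above those of CD mice in every panel and at every time, and the groups overlap except for Kdr at 20 weeks, where the lowest HFD mouse (22.4 CPM) was above the highest CD mouse (21.3 CPM).

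Pecam1 and Cdh5 encode adhesion proteins of the junction between endothelial cells. PECAM-1 (CD31), which leukocytes and platelets also carry, lies on chromosome 11 (106654217 to 106750628, GRCm38, minus strand), and VE-cadherin, the product of Cdh5, is the adherens junction cadherin of endothelium and lies on chromosome 8 (104101625 to 104144511, plus strand). Pecam1 ranged from 8.99 through a median of 12.8 to 45.8 CPM in 8 week CD mice and from 19.1 through 53.8 to 92.7 CPM in 8 week HFD mice. At 20 weeks it ranged from 9.42 through 26.8 to 36.3 CPM in CD and from 35.5 through 66.5 to 100.5 CPM in HFD mice. At 34 weeks it ranged from 9.23 through 18.1 to 31.9 CPM in CD and from 25.5 through 42.3 to 95.5 CPM in HFD mice. At each time 6 of 6 HFD mice were above the CD mean, and 4, 5 and 4 of them were above the highest CD mouse, which at 8 weeks was mouse 4. The log2 difference was 1.60 (SE 0.38, adjusted p = 0.00129), 1.28 (SE 0.38, adjusted p = 0.00476) and 1.37 (SE 0.36, adjusted p = 0.0028) at 8, 20 and 34 weeks by limma. Pecam1 was the steadiest of the 8, since it passed at each time with each mouse left out in turn, with an adjusted p of at most 0.023.

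Cdh5 ranged from 6.25 through a median of 16.4 to 69.1 CPM in 8 week CD mice and from 21.2 through 64.9 to 119.1 CPM in 8 week HFD mice. At 20 weeks the CD mice ranged from 11.7 through 32.3 to 48.0 CPM and the HFD mice from 43.7 through 79.5 to 131.9 CPM. At 34 weeks they ranged from 13.04 through 18.6 to 32.1 CPM and from 25.4 through 42.3 to 127.7 CPM. The groups overlapped at each time, with 3, 5 and 3 of 6 HFD mice above the highest CD mouse. Cdh5 was higher with HFD by 1.71 (SE 0.43, adjusted p = 0.00199), 1.28 (SE 0.43, adjusted p = 0.0114) and 1.29 (SE 0.40, adjusted p = 0.0102) on the log2 scale by limma, and it too passed with each mouse left out in turn, the highest adjusted p being 0.0497.

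Kdr and Flt1 encode the receptors of VEGF. VEGFR2, from Kdr, carries most of the growth signal, while VEGFR1, from Flt1, binds VEGF tightly and is known as a decoy, and Flt1 is also found on monocytes and macrophages. Both lie on chromosome 5 (75932827 to 75978458 and 147561604 to 147726011, minus strand). Kdr ranged from 5.02 through a median of 11.7 to 50.2 CPM in CD and from 13.6 through 30.3 to 58.9 CPM in HFD mice at 8 weeks. At 20 weeks the ranges were 7.14 through 16.4 to 21.3 CPM and 22.4 through 33.6 to 51.7 CPM, and at 34 weeks 9.92 through 13.9 to 28.4 CPM and 19.1 through 30.2 to 78.0 CPM. Kdr at 20 weeks was the 1 case among the 8 genes in which every HFD mouse was above every CD mouse, a pattern that 26.1% of all genes tested had at that time. At 8 and 34 weeks 0 of the 8 genes had it, against 15.7% and 1.47% of all genes. The log2 difference of Kdr was 1.20 (SE 0.39, adjusted p = 0.0126), 1.08 (SE 0.39, adjusted p = 0.0175) and 1.13 (SE 0.36, adjusted p = 0.0125) by limma. Without CD mouse 3 at 20 weeks it was 0.88 with an adjusted p of 0.0608, and without HFD mouse 2 at 34 weeks 0.89 with an adjusted p of 0.0569.

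Flt1 ranged from 3.98 through a median of 14.4 to 55.3 CPM in CD and from 14.5 through 34.9 to 62.2 CPM in HFD mice at 8 weeks. At 20 weeks the ranges were 6.33 through 27.8 to 36.7 CPM and 25.9 through 51.2 to 71.2 CPM. At 34 weeks they were 7.03 through 12.2 to 19.1 CPM and 12.1 through 21.7 to 67.7 CPM. The log2 difference between diets was 1.15 (SE 0.44, adjusted p = 0.0349), 1.07 (SE 0.44, adjusted p = 0.0389) and 0.87 (SE 0.42, adjusted p = 0.0873) by limma, and Flt1 was the 1 gene that did not pass at 34 weeks, with a 95% interval from 0.026 to 1.71. It was also the least steady at 8 weeks, where leaving out any 1 of 8 mice (CD mice 1, 3, 5 and 6 and HFD mice 3, 4, 5 and 6) took the adjusted p to between 0.0508 and 0.133. At 20 weeks any 1 of 5 mice (CD mice 3 and 5 and HFD mice 1, 2 and 6) took it to between 0.0625 and 0.154, whereas without HFD mouse 1 at 34 weeks it passed with 0.0469.

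Among the VEGF ligands, Vegfa, the main growth factor for vessels, was lower with HFD at each time, by −0.60, −0.89 and −0.96 on the log2 scale (adjusted p = 0.00703, 7.98e-05 and 7.00e-05 by limma), from 539 ± 106 CPM in CD to 365 ± 115 CPM in HFD mice at 8 weeks (mean ± SD, n = 6 and 6). Vegfb, a ligand of VEGFR1, was lower at 20 weeks by −0.50 and at 34 weeks by −0.55 (adjusted p = 0.0139 and 0.0064), and at 8 weeks its difference was 0.09. Pgf, placental growth factor, was below the filter on low values, with means of 0.895 CPM in CD and 4.49 CPM in HFD mice at 8 weeks. The coreceptor Nrp1 was higher by 0.84 and 0.81 at 20 and 34 weeks (adjusted p = 5.36e-05 and 0.000164), and its difference at 8 weeks was 0.03. Nrp2 was higher at each time, by 1.45, 2.44 and 1.98 (adjusted p = 0.00876, 2.25e-05 and 0.000442). Of the 8 VEGF ligands and receptors listed besides Kdr and Flt1, 7 were in the table and 4 were tested, of which 1, 2 and 2 rose and 1, 2 and 2 fell at 8, 20 and 34 weeks. Of all genes tested 29.8%, 38.3% and 27.5% rose and 15.1%, 18.7% and 15.7% fell at these times.

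Tek and Tie1 encode the receptor pair of the angiopoietins. TIE2, from Tek, binds Angpt1, which keeps vessels quiet, and Angpt2, which loosens them, while TIE1 binds no angiopoietin strongly and modulates TIE2. Both genes lie on chromosome 4 (94739289 to 94874976, plus strand, and 118471191 to 118490061, minus strand). Tek ranged from 1.61 through a median of 3.60 to 14.8 CPM in CD and from 4.47 through 11.4 to 19.4 CPM in HFD mice at 8 weeks. The ranges were 2.35 through 6.86 to 10.01 CPM and 8.01 through 13.9 to 20.8 CPM at 20 weeks, and 2.79 through 3.33 to 5.99 CPM and 5.04 through 9.75 to 23.05 CPM at 34 weeks. The diets came closest to separating at 34 weeks, with 5 of 6 HFD mice above the highest CD mouse. The log2 difference was 1.17 (SE 0.35, adjusted p = 0.00818), 1.01 (SE 0.35, adjusted p = 0.0149) and 1.25 (SE 0.33, adjusted p = 0.00311) by limma. Without CD mouse 3 at 20 weeks it was 0.81 with an adjusted p of 0.0577.

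Tie1 ranged from 2.18 through a median of 6.44 to 22.6 CPM in CD and from 6.06 through 19.6 to 37.7 CPM in HFD mice at 8 weeks. At 20 weeks it ranged from 2.13 through 10.03 to 15.1 CPM and from 13.3 through 25.4 to 35.6 CPM, and at 34 weeks from 4.19 through 6.31 to 12.1 CPM and from 8.39 through 14.9 to 38.3 CPM. The groups overlapped at each time, with 2, 4 and 3 of 6 HFD mice above the highest CD mouse. The log2 difference was 1.36 (SE 0.42, adjusted p = 0.00951), 1.25 (SE 0.42, adjusted p = 0.012) and 1.22 (SE 0.40, adjusted p = 0.0131) by limma. Without CD mouse 3 at 20 weeks it was 0.92 (adjusted p = 0.0579) and without HFD mouse 2 at 34 weeks 0.99 (adjusted p = 0.0555).

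Among the angiopoietins, Angpt2 was higher with HFD at each time. It was at 0.450 ± 0.348 CPM in CD and 3.80 ± 1.80 CPM in HFD mice at 8 weeks, 1.10 ± 0.642 and 11.7 ± 3.46 CPM at 20 weeks (mean ± SD, n = 6 and 6), and 1.67 ± 1.57 (n = 8) and 15.3 ± 8.26 CPM (n = 6) at 34 weeks. These were differences of 1.66, 2.60 and 2.56 on the log2 scale (adjusted p = 0.00028, 2.44e-07 and 1.50e-06 by limma). Angpt2 passed the filter only through the HFD mice (mean log2(CPM + 1) of 0.96 in CD and 3.199 in HFD mice). With no filter its adjusted p was 0.00057, 5.27e-07 and 1.42e-06. Angpt1 was lower with HFD at 8 weeks by −1.50 (adjusted p = 0.00121), and its differences of −0.44 and 0.50 at 20 and 34 weeks did not pass (adjusted p = 0.291 and 0.223). Its signed diet difference thus moved up by 2.00 from 8 to 34 weeks (SE 0.49, adjusted p = 0.00266 by limma), from a fall to no call. In CD mice Angpt1 was lower at 34 than at 8 weeks by −1.89 (adjusted p = 1.32e-05). Ptprb, the endothelial phosphatase VE-PTP that acts on TIE2, was higher at 8 weeks by 1.35 (adjusted p = 0.0199), and its differences of 1.06 and 0.85 later did not pass (adjusted p = 0.0544 and 0.118). Of the 5 genes of this list, 4 were tested, of which 2, 2 and 1 rose and 1, 0 and 0 fell at 8, 20 and 34 weeks. The shares of all genes were 29.8%, 38.3% and 27.5% higher and 15.1%, 18.7% and 15.7% lower.

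Egfl7 and Emcn encode a secreted matrix protein of endothelium and endomucin, a mucin on the surface of capillary and venous endothelium. They lie on chromosome 2 (26580014 to 26593120, plus strand) and chromosome 3 (137341067 to 137432185, plus strand). Egfl7 ranged from 0.852 through a median of 2.88 to 10.7 CPM in CD and from 3.26 through 7.75 to 15.0 CPM in HFD mice at 8 weeks. At 20 weeks the ranges were 2.06 through 5.87 to 6.92 CPM and 6.16 through 9.18 to 15.4 CPM, and at 34 weeks 2.30 through 4.24 to 11.4 CPM and 5.88 through 9.30 to 23.1 CPM. At 20 weeks 5 of 6 HFD mice were above the highest CD mouse. The log2 difference was 1.07 (SE 0.36, adjusted p = 0.017) at 8 weeks and 1.00 (SE 0.34, adjusted p = 0.0168) at 34 weeks by limma, and at 20 weeks it was 0.78 (SE 0.36, adjusted p = 0.0642), which did not pass. It passed at 20 weeks without HFD mouse 3 of that group (adjusted p = 0.0498) and without CD mouse 4 of the 8 week group (0.0438), which changes the shared spread. The call was lost at 8 weeks without CD mouse 3 (0.0654) or HFD mouse 6 (0.0566), and at 34 weeks without HFD mouse 2 (0.0709) or HFD mouse 4 (0.0525).

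Emcn was the lowest of the 8 in CPM. It ranged from 0.663 through a median of 1.65 to 5.46 CPM in CD and from 1.67 through 5.04 to 7.20 CPM in HFD mice at 8 weeks, from 1.55 through 2.78 to 3.97 CPM and from 2.48 through 5.76 to 6.77 CPM at 20 weeks, and from 0.904 through 1.97 to 4.20 CPM and from 2.99 through 4.62 to 11.7 CPM at 34 weeks. At 20 weeks 4 of 6 HFD mice were above every CD mouse and the other 2, mice 3 and 4, were below the CD median. The log2 difference was 0.87 (SE 0.33, adjusted p = 0.031) and 1.11 (SE 0.31, adjusted p = 0.0044) at 8 and 34 weeks, and 0.60 (SE 0.33, adjusted p = 0.115, 95% interval −0.06 to 1.27) at 20 weeks by limma. As given above, Emcn was tested only because of its level in HFD mice, and with no filter its adjusted p was 0.0528, 0.168 and 0.00745 at 8, 20 and 34 weeks. The 8 week call was lost when any 1 of 7 mice was left out (CD mice 1, 3 and 5 and HFD mice 3, 4, 5 and 6), with an adjusted p between 0.0509 and 0.0903.

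**Figure D2:**
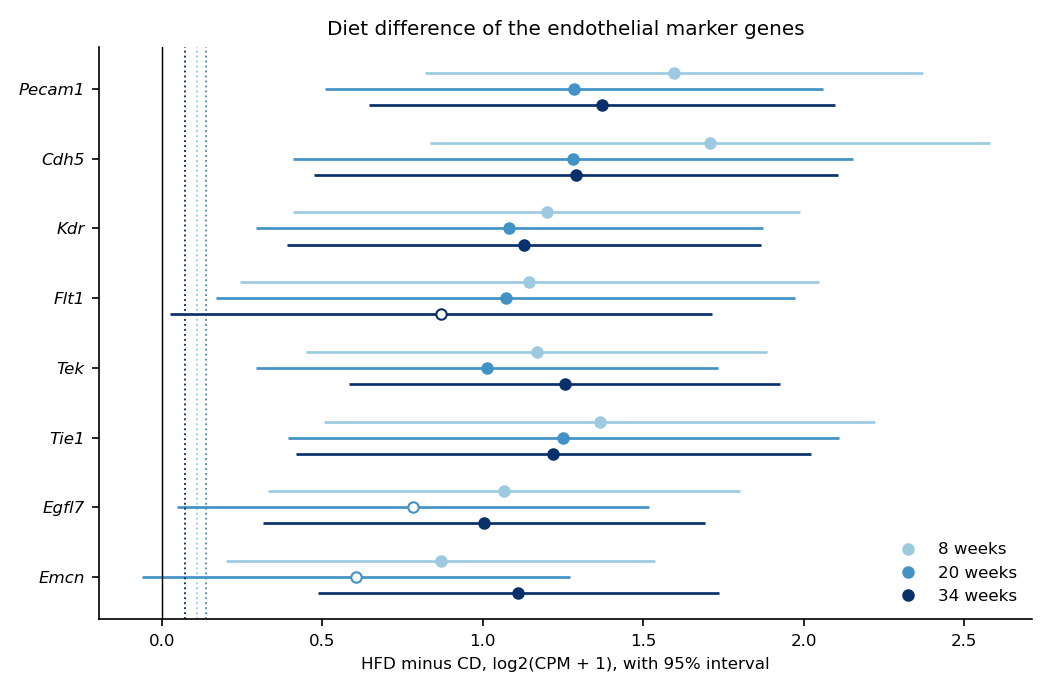
The plot shows the HFD minus CD difference of each gene on the log2(CPM + 1) scale with its 95% interval at 8, 20 and 34 weeks (light to dark), filled where the adjusted p was under 0.05 and open where it was not, with dotted lines at the median of all genes tested. All 24 differences lie above 0, between 0.60 and 1.71, and the intervals of the 3 times overlap for each gene.

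The next question was whether the genes moved with time. In the test of each time against another, 0 of the 8 genes passed in CD mice for 20 against 8 weeks (3.58% of all genes passed in either direction), for 34 against 8 weeks (64.7%) and for 34 against 20 weeks (62.5%). In HFD mice 0 of 8 passed for 20 against 8 weeks (36.5%), 34 against 8 weeks (52.5%) and 34 against 20 weeks (30.2%). The unadjusted p of limma was under 0.05 for 1 gene in HFD mice at 34 against 20 weeks, which was Flt1, and for 0 genes in the other 5 comparisons. The count tests edgeR and DESeq2 called 2 and 3 of the 8 as lower in CD mice at 34 against 20 weeks, among them Flt1 and Tek in either tool, and 0 in the other 5. By limma 2215 of all 10343 genes were called lower in CD mice at 34 against 20 weeks. The shares of all genes in the count tests are not given here, so these calls are not shown to be particular to the 8 genes. These comparisons use the same mice as the diet comparisons and share groups among themselves.

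In CD mice the median difference of the 8 genes was 0.44 at 20 against 8 weeks, 0.04 at 34 against 8 weeks and −0.41 at 34 against 20 weeks on the log2 scale. In HFD mice it was 0.23, −0.12 and −0.34. The intervals were wide, as for Cdh5 in CD mice at 34 against 8 weeks (0.05, 95% interval −0.76 to 0.87) and Kdr in the same comparison (0.23, −0.51 to 0.97). Flt1 had the lowest values at 34 against 20 weeks, −0.83 (SE 0.42, adjusted p = 0.0789) in CD and −1.04 (SE 0.44, adjusted p = 0.0738) in HFD mice by limma. It passed in CD mice without CD mouse 3 at 20 weeks (−1.17, adjusted p = 0.0137), and Tek then passed as well (−0.79, adjusted p = 0.0435). With TMM factors Flt1 passed in CD mice with all mice kept (−0.98, adjusted p = 0.0371). In HFD mice it passed without HFD mouse 3 at 20 weeks (−1.21, adjusted p = 0.0469) or without HFD mouse 2 at 34 weeks (−1.34, adjusted p = 0.0192). Without both mice at the high end and CD mouse 3 at 20 weeks, Cdh5 also passed in CD mice at 20 against 8 weeks (1.33, adjusted p = 0.0462) and Flt1 in HFD mice at 34 against 8 weeks (−0.85, adjusted p = 0.0419). Egfl7 passed in CD mice at 34 against 8 weeks without CD mouse 4 at 8 weeks (0.75, adjusted p = 0.0444), while with all mice it was 0.46 (SE 0.34, adjusted p = 0.234).

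Whether the diet difference itself changed was tested as an interaction. Between 20 and 8 weeks, 34 and 8 weeks and 34 and 20 weeks 0 of the 8 genes passed, where 4.49%, 28.8% and 10.5% of all genes did. The unadjusted p was under 0.05 for 0 genes, and edgeR and DESeq2 called 0. The largest changes were −0.42 for Cdh5 from 8 to 20 weeks (95% interval −1.66 to 0.81) and 0.51 for Emcn from 20 to 34 weeks (−0.41 to 1.42). From 8 to 20 weeks the change was −0.26 for Emcn (95% interval −1.21 to 0.68) and −0.28 for Egfl7 (−1.325 to 0.756). A pass at 8 weeks and none at 20 weeks for Emcn or Egfl7 therefore does not show that their diet difference changed.

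Levels of different genes were compared per length, as CPM per kb of the union of exons (GENCODE vM21). The order of means over all 38 mice was Cdh5 (10.8 CPM per kb), Pecam1 (6.05), Tie1 (2.95), Kdr (2.82), Flt1 (2.12), Egfl7 (2.05), Tek (1.80) and Emcn (0.682). Cdh5 was above Pecam1, Pecam1 above Tie1 and Tek above Emcn in 38 of 38 mice. The middle of the order did not hold from mouse to mouse, as Tie1 was above Kdr in 18, Kdr above Flt1 in 29, Flt1 above Egfl7 in 22 and Egfl7 above Tek in 23 of 38 mice.

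The levels of the 8 genes went together from mouse to mouse within a group. For this the mean of its own group was taken from each mouse, on the log2(CPM + 1) scale, so that diet and time could not enter. Over 38 mice the 28 pairs of genes had Pearson correlations from 0.84 to 0.95 with a median of 0.91. The correlation of other genes tested with the mean of the 8 had a median of 0.04, and of 0.20 in absolute value. Pairs share the libraries and their depth, and the values are a description without a test. The same mice were at the ends of a group for most genes, as CD mouse 3 was lowest at 8 weeks for 8 of 8 and another CD mouse 3 lowest at 20 weeks for 8 of 8, while HFD mouse 6 was highest at 8 weeks for 7 of 8 and another HFD mouse 6 at 20 weeks for 7 of 8.

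Of the genes outside the set, the 10 most like the mean of the 8 were Cdh13 (Pearson r = 0.98), Esam (0.97), Aqp1 (0.97), Ablim3 (0.96), Ushbp1 (0.96), C1qtnf9 (0.96), Jam2 (0.96), Rgs5 (0.95), Fgd5 (0.95) and Ly6c1 (0.95), over 38 mice. Cdh13 encodes T-cadherin, which binds adiponectin, Esam and Jam2 encode adhesion proteins of endothelial junctions, Aqp1 a water channel of capillaries and Rgs5 a marker of pericytes, the mural cells that wrap capillaries. Cdh13 was higher with HFD at each time, by 1.32, 1.10 and 0.92 on the log2 scale (adjusted p = 0.0038, 0.0101 and 0.0267 by limma). Aqp1 was higher at 8 weeks by 1.59 (adjusted p = 0.0109), and its differences of 0.87 and 0.60 later did not pass (adjusted p = 0.14 and 0.301). Rgs5 was higher by 1.48 at 8 and 1.39 at 34 weeks (adjusted p = 0.0195 and 0.0201), with 0.64 at 20 weeks (adjusted p = 0.291).

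**Figure D3:**
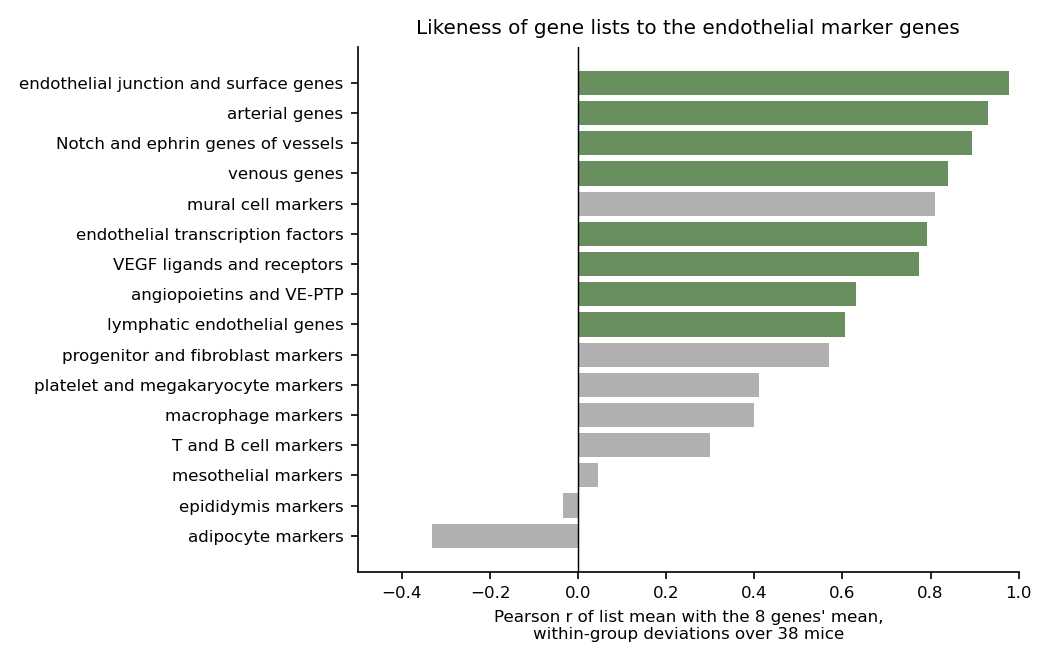
Bars give the Pearson correlation between the mean of a gene list and the mean of the 8 endothelial genes, taken over 38 mice as deviations from the mean of each mouse's group, with vessel lists in green and other cell types in grey. The junction and surface list reaches 0.98 and the arterial list 0.93, while macrophage markers reach 0.40 and adipocyte markers −0.33.

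The balance within the set was followed as ratios within a mouse. The ratio of Flt1 to Kdr in CPM had a median of 1.21 in CD and 1.14 in HFD mice at 8 weeks (0.79 to 1.54 and 0.91 to 1.55), and of 1.69 and 1.43 at 20 weeks (0.89 to 2.00 and 1.16 to 1.85). At 34 weeks it was 0.74 in CD (0.61 to 1.42) and 0.63 in HFD mice (0.61 to 0.87). In HFD mice every mouse at 34 weeks was below every mouse at 8 and at 20 weeks, and in CD mice the groups overlapped. The ratios of Tek to Tie1 (medians 0.54 to 0.68 over the 6 groups), Pecam1 to Cdh5 (0.78 to 0.99) and Egfl7 to Emcn (1.67 to 2.70) had overlapping groups between those same times in HFD mice. These 4 ratios were chosen after the values were seen, so they carry no test.

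**Figure D4:**
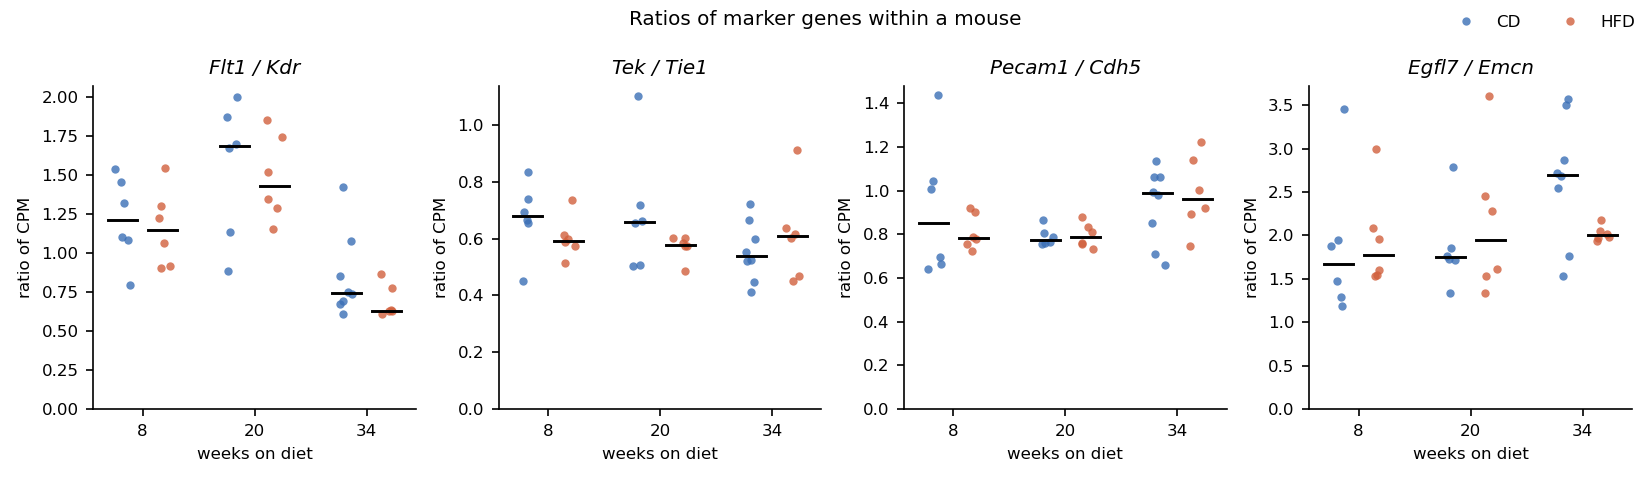
Each panel plots the ratio of CPM of 2 genes in a mouse against weeks on diet, on an axis from 0, with 1 point per mouse (blue CD, red HFD) and bars for group medians. The Flt1 to Kdr ratio lies between 0.61 and 0.87 in the 34 week HFD mice and between 1.16 and 1.85 in the 20 week HFD mice.

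Other genes of vessels were followed with lists. Beside their counts, 29.8%, 38.3% and 27.5% of all genes tested rose with HFD at 8, 20 and 34 weeks, and 15.1%, 18.7% and 15.7% fell. Of 23 genes of endothelial junctions and surface, 16 were tested, of which 15, 14 and 11 rose with HFD at 8, 20 and 34 weeks and 0 fell, with medians of 1.26, 1.13 and 1.15. Cd93 rose most at 20 weeks, by 2.61 (adjusted p = 4.82e-05), and is also found on myeloid cells. Nos3, the endothelial nitric oxide synthase, had the lowest value, −0.31 at 20 weeks (adjusted p = 0.186). Of 16 endothelial transcription factors 12 were tested, and 7, 6 and 7 rose with 0 lower, with medians of 1.02, 0.82 and 0.77. Lmo2, which blood cells use too, rose by 1.44, 2.68 and 1.80 (adjusted p = 0.00598, 2.81e-06 and 0.000598). Ets2 had −0.60 and −0.58 at 8 and 20 weeks (adjusted p = 0.089 and 0.0827) and rose by 0.74 at 34 weeks (adjusted p = 0.026), and its diet difference at 34 weeks differed from that at 8 and 20 weeks by 1.33 and 1.32 (adjusted p = 0.0109 and 0.0278).

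Of 8 Notch and ephrin genes of vessels 6 were tested, and 3, 5 and 2 rose with 0 lower. Among all genes 29.8%, 38.3% and 27.5% rose at 8, 20 and 34 weeks, so the 34 week count was near that share. Dll4, a Notch ligand of arterial and sprouting endothelium, rose by 2.00, 1.71 and 1.29 (adjusted p = 0.00148, 0.00323 and 0.0212), and Ephb4, a venous receptor, had the lowest value of the list at 20 weeks, 0.17 (adjusted p = 0.409). Of 8 arterial genes, 3 of which are also in the former list, 4 were tested and 3, 4 and 3 rose, among them Sema3g by 1.93, 1.79 and 0.95 (adjusted p = 9.87e-05, 8.87e-05 and 0.0229). Efnb2, the arterial ephrin, had 0.64, 0.75 and 0.68 (adjusted p = 0.0504, 0.0169 and 0.0276). Of 6 venous genes 4 were tested, with 3, 2 and 1 higher and 1 lower at each time. The counts at 20 and 34 weeks were near the share of all genes. Vwf, von Willebrand factor, a clotting protein stored in endothelium and platelets, rose by 1.85, 2.42 and 1.32 (adjusted p = 0.000491, 6.31e-06 and 0.00528), although it passed the filter only through the HFD mice (mean log2(CPM + 1) of 1.50 in CD and 3.31 in HFD mice). With no filter its adjusted p was 0.000999, 1.34e-05 and 0.00907. Nr2f2, a venous transcription factor that adipocytes and progenitors also use, fell by 0.77, 0.94 and 0.56 on the log2 scale (adjusted p = 0.00643, 0.000725 and 0.0309). Of 6 lymphatic genes 2 were tested, and 0, 1 and 0 rose. Pdpn, which fibroblasts carry as well, rose by 2.19 at 20 weeks (adjusted p = 0.000166 by limma). Lyve1, also on resident macrophages, had 1.04, −1.13 and −0.55 at 8, 20 and 34 weeks (adjusted p = 0.1065, 0.0652 and 0.371 by limma).

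**Figure D5:**
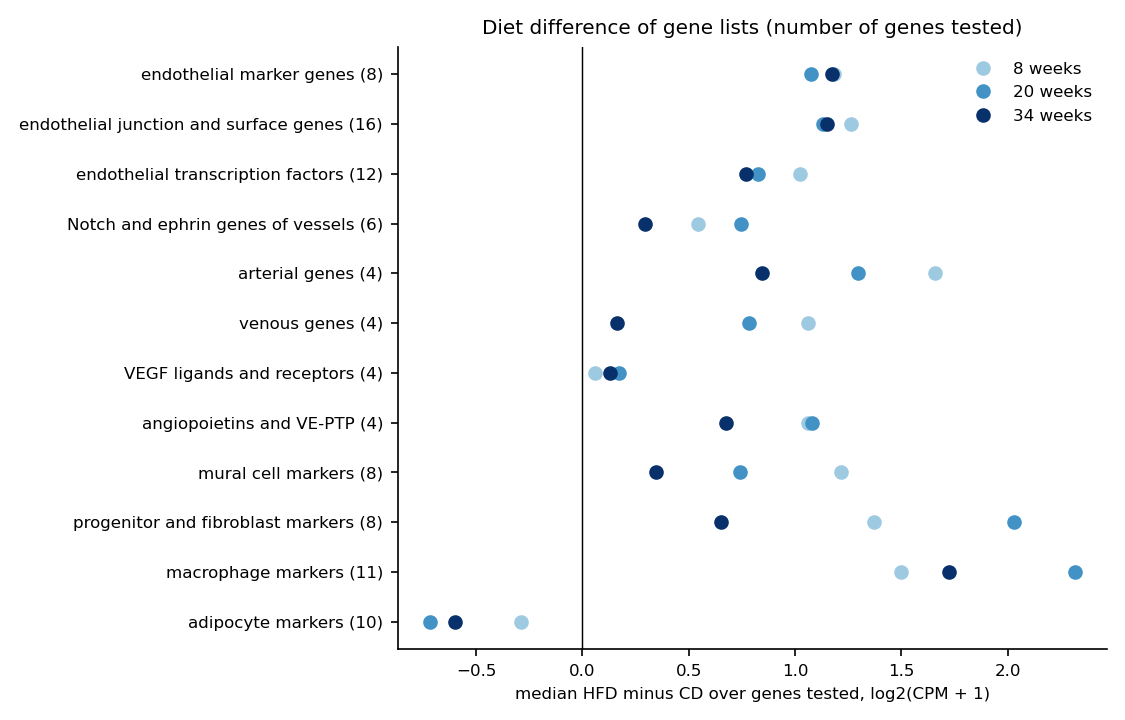
Points give the median HFD minus CD difference of the genes tested in each list on the log2(CPM + 1) scale at 8, 20 and 34 weeks (light to dark), with the number of genes tested in brackets. The 8 endothelial marker genes stay between 1.08 and 1.18, the macrophage markers between 1.50 and 2.31, and the adipocyte markers lie below 0.

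Markers of other cells moved with diet as well. Summed macrophage markers ranged from 384 to 1796 CPM in CD and from 1136 to 3206 CPM in HFD mice at 8 weeks, from 1003 to 3528 and from 4554 to 9356 CPM at 20 weeks, and from 1188 to 12860 and from 5273 to 15750 CPM at 34 weeks. Of 12 macrophage markers 11 were tested, of which 7, 8 and 10 rose and 0, 1 and 0 fell. Of all genes 29.8%, 38.3% and 27.5% rose at 8, 20 and 34 weeks. Cd68 rose by 3.29 at 20 weeks (adjusted p = 1.56e-06) and Cd163 fell by 1.35 on the log2 scale (adjusted p = 0.0113). Between 8 and 34 weeks 9 of the 11 rose in CD mice, and in HFD mice 10 rose and 1 fell. Over the same times 4151 of all 10343 genes rose in CD mice. In HFD mice 3280 rose and 2152 fell. Within groups their mean had a correlation of 0.40 with the mean of the 8 endothelial genes over 38 mice. Their part in the diet difference was not tested beyond the covariate given above.

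Mural cell markers had a within-group correlation of 0.81 with the 8 genes, and 5, 5 and 4 of the 8 tested (of 11) rose with 0 lower. The share of all genes that rose was 29.8%, 38.3% and 27.5%. Their summed level ranged from 125 to 262 CPM in CD and from 184 to 575 CPM in HFD mice at 8 weeks, from 51.7 to 159 and from 140 to 359 CPM at 20 weeks, and from 109 to 305 and from 138 to 335 CPM at 34 weeks. Acta2, smooth muscle actin, rose by 1.74 and 2.34 at 8 and 20 weeks (adjusted p = 0.0136 and 0.00075) and had 0.11 at 34 weeks (adjusted p = 0.88), while the pericyte gene Cspg4 had −0.23, 0.41 and 0.58 (adjusted p = 0.455, 0.166 and 0.0434). Progenitor and fibroblast markers had a correlation of 0.57, and 5, 8 and 3 of 8 tested (of 9) rose with 0 lower. The 3 of 8 at 34 weeks was near the share of all genes. Their summed level ranged from 356 to 621 CPM in CD and from 393 to 1429 CPM in HFD mice at 8 weeks, from 225 to 618 and from 807 to 1966 CPM at 20 weeks, and from 394 to 2188 and from 518 to 1175 CPM at 34 weeks. Col1a1 rose by 2.55 and 3.66 at 8 and 20 weeks (adjusted p = 0.000461 and 1.60e-06) with 0.14 at 34 weeks (adjusted p = 0.845), and Dpp4 by 1.90 and 0.94 (adjusted p = 0.000245 and 0.0352) with −0.27 at 34 weeks (adjusted p = 0.562). Dpp4 too passed the filter only through the HFD mice, and with no filter its adjusted p at 20 weeks was 0.0554. In mouse 4 of the 8 week CD group the summed mural markers ranked 3 of 6 and the macrophage markers 3 of 6, and the progenitor markers (621 CPM) and mesothelial markers (23.2 CPM) ranked 1. In mouse 2 of the 34 week HFD group the mural markers (335 CPM) and the progenitor markers (1175 CPM) ranked 1 of 6, the macrophage markers 3 of 6 and the mesothelial markers 4 of 6. The part of mural and progenitor cells in the diet difference was not tested.

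Of 10 adipocyte markers tested 2, 7 and 9 fell and 1, 1 and 0 rose at 8, 20 and 34 weeks. Of all genes 15.1%, 18.7% and 15.7% were called lower and 29.8%, 38.3% and 27.5% higher. Their summed level ranged from 49400 to 60830 CPM in CD and from 35650 to 47050 CPM in HFD mice at 8 weeks, from 42400 to 68720 and from 25480 to 35450 CPM at 20 weeks, and from 30320 to 65630 and from 16720 to 40690 CPM at 34 weeks. Cfd, adipsin, fell by 2.76, 4.03 and 2.70 on the log2 scale (adjusted p = 1.37e-05, 2.26e-08 and 1.69e-05), and Lep, leptin, rose by 2.18 and 2.90 at 8 and 20 weeks (adjusted p = 0.00118 and 1.78e-05). At 34 weeks the difference of Lep was 0.56 and did not pass (adjusted p = 0.351 by limma). Of 7 mesothelial markers 3 were tested and 2, 0 and 0 rose, with summed levels up to 71.7 CPM and a correlation of 0.05. Msln rose by 1.31 at 8 weeks (adjusted p = 0.0203 by limma). Its differences of 0.43 and −0.66 at 20 and 34 weeks did not pass (adjusted p = 0.433 and 0.213 by limma). Lrrn4 had the lowest value of that list at 20 weeks, −0.01 (adjusted p = 0.989). Of 6 platelet and megakaryocyte markers 1 was tested, Pf4, which macrophages also make, with 1.04, 1.25 and 1.32 (adjusted p = 0.0779, 0.0269 and 0.0182), and the mean of the list had a correlation of 0.41. No T and B cell marker (7 genes, summed level up to 6.07 CPM) and no epididymis marker (5 genes, up to 9.62 CPM) passed the filter on low values, and no gene of any list was at 0 in all mice.

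The scaling of the libraries moved the size of the differences. With TMM factors the median of all genes moved from 0.11, 0.14 and 0.07 to 0.01, −0.07 and −0.01 at 8, 20 and 34 weeks, and the share of all calls that were higher from 66.3%, 67.1% and 63.6% to 51.4%, 44.8% and 51.9%. The median difference of the 8 endothelial genes was then 1.09, 0.87 and 1.09, with 8, 5 and 7 of the 8 passing as higher. Of all genes tested 22.6%, 26.3% and 22.4% passed as higher with these factors.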

How the data were processed

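PolyA RNA of isolated adipocytes was sequenced with a stranded library kit. The deposited table holds CPM values (reads of a gene per 1000000 gene reads) for 29132 genes and 38 mice, which the authors made by aligning reads to GRCm38 (mm10) with STAR 2.5.2b and counting with featureCounts of Subread 1.5.1, per the submitters' processing notes. The labels list 3 technical replicates per mouse, and how they were combined into 1 column is not given in the sources used here. Each column sums to 1000000, and 100% of values were whole multiples of 1 read (tolerance 0.1 read), so that reads could be recovered. Reads per mouse ranged from 9275711 to 15480388, and 1 read is worth 0.0646 to 0.108 CPM, which limits counting error only. No columns were left unused.

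Differences were fitted with limma 3.58.1 (R 4.3.3) on log2(CPM + 1), with 1 mean per diet and time over all 38 mice (32 residual degrees of freedom), for the 10343 genes with a mean above 2, and the Benjamini-Hochberg adjustment ran across this whole table. Intervals are 95%. On the recovered reads edgeR 4.0.16 called 4521, 6042 and 4478 genes and DESeq2 1.42.0 called 4704, 6077 and 4713 at 8, 20 and 34 weeks. Other alternatives were the pseudocount, the filter, the scaling, each comparison's own groups, array weights, the replicate number as a block, a macrophage marker covariate and leaving out each mouse. The limma fit was also run on simulated reads with known changes, as a check of the code. Genes were drawn independently there, unlike the 8 genes here, so it says nothing of their joint counts.

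The members and lists were chosen with earlier results of these data known. Of 149 list genes 144 matched by symbol. Vegfd, Adgrl4, Adgrf5, Ackr1 and Adgre1 were not analysed here. Named were all members, their direct ligands and partners, the list genes highest and lowest at 20 weeks, and the 10 genes most like the members, with predicted genes passed over. Some lists share genes. Nothing in the sources says which mice shared a cage or day. No pairing of the mice by number is stated, and none was clearly seen.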

Additional observations from a re-analysis of the deposited data

Results flagged for a closer look

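In the 8 week CD group mouse 4 lay far above the other 5 mice for 6 of the 8 genes, with a gap to the next mouse, as a share of the whole range, above the critical value of 0.625 for 6 samples. Its level was 45.8 CPM for Pecam1 (gap 0.757 of the range), 69.1 CPM for Cdh5 (0.691), 50.2 CPM for Kdr (0.752), 55.3 CPM for Flt1 (0.660), 14.8 CPM for Tek (0.628) and 22.6 CPM for Tie1 (0.648). In the 34 week CD group mouse 2 was far above the others for Egfl7, at 11.4 CPM (0.551 of the range, critical value 0.526 for 8 samples). These are 7 of 48 combinations of gene and group, and chance gives about 1 in 20 where values follow a normal distribution. The gaps were taken on CPM and not on its log, so that rate may not hold here and the flags are a description. HFD mouse 2 at 34 weeks, said above to stand apart, was not flagged for any gene. The 8 genes of a mouse come from 1 library and are not independent.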

How the results depend on the processing

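The number of the 8 genes that passed was 8, 6 and 7 between the diets at 8, 20 and 34 weeks. At 8 weeks it moved to 4 with edgeR, 5 with DESeq2 and 2 with the macrophage covariate. At 20 weeks it was 4 with edgeR, 5 with DESeq2, 8 with array weights or own groups only and 0 with the covariate. At 34 weeks it was 8 with edgeR and with DESeq2, 2 with array weights and 0 with the covariate. Leaving out each mouse gave 5 to 8, 2 to 7 and 4 to 8. For CD mice at 34 against 20 weeks it moved from 0 to 1 with TMM, median-of-ratios factors, own groups only or both mice that stood apart left out, to 2 with edgeR or array weights, 3 with DESeq2 and 4 with the covariate, and single mice gave 0 to 2. For CD mice at 34 against 8 weeks it was 1 without both mice, and 0 to 1 with single mice left out. For HFD mice it was 2 with array weights at 34 against 8 weeks, and at 34 against 20 weeks 3 with array weights, 1 with the covariate and 1 without both mice, with 0 to 1 for single mice. With CD mouse 3 of the 20 week group left out besides both mice, it was 1 for CD mice at 20 against 8 weeks, 1 at 34 against 8 weeks and 3 at 34 against 20 weeks, and for HFD mice 1 at 34 against 8 weeks and 2 at 34 against 20 weeks. In the other time comparisons and interactions it was 0 with each mouse left out. The cause of these moves was not tested. For most of these settings the share of all genes that passed is not given here, so the counts are not a result about the 8 genes alone. None of the 24 diet differences changed direction in 51 settings, many of which, such as leaving out a mouse of another time, could not move it. With the replicate block 8, 6 and 6 passed between the diets. Same-numbered mice had mean correlations of 0.065, 0.027 and −0.078 at 8, 20 and 34 weeks, and 4, 3 and 1 of 6 pairs were over 0.1. Among pairs of unlike number 10 of 30, 11 of 30 and 16 of 42 were over 0.1. No clear pairing by number was seen, and 6 pairs per time are too few to exclude it.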
